A study of Homo sapiens with 6 samples.

Results

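The region examined was the stretch of human chromosome 1 around the gene of the long noncoding RNA (lncRNA) CRLM1, which is annotated as LINC01767. Its members were the chromatin peaks whose midpoint fell at chr1:46400000-66400000 (GRCh38), that is, up to about 10 Mb on either side of the gene. The rule used position alone, so neither the scores nor the neighbouring genes entered it. There were 323 such peaks among the 36781 peaks of chromosomes 1 to 22, X and Y, and among 36932 when the remaining contigs were counted. They came from ChIRP-seq, the sequencing of DNA obtained by chromatin isolation by RNA purification, with formaldehyde-crosslinked HCT116 cells, an established line from a human colorectal carcinoma. The 6 libraries formed 3 groups of 2 replicates each. CRLM1_IP was a pull-down with CRLM1 antisense oligos, LacZ was a pull-down with LacZ antisense oligos and served as the negative control with a bacterial target, and Input was genomic DNA used as the second control. The data took the form of 4 peak lists, in which each CRLM1_IP replicate was set against the Input or the LacZ library of the same number. The lists are named here by replicate and control as R1-Input, R2-Input, R1-LacZ and R2-LacZ, and they contributed 78, 152, 88 and 5 peaks in that order. The totals above sum these lists. In replicates 1 and 2, 39 and 5 intervals of the region were called against both controls and count once in each list. The labels name 2 biological replicates and do not say how they were kept apart. The lists contain no read counts, so the depth behind each peak is unknown.

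A lncRNA that stays at chromatin can act in cis, on genes close to the site where it is made, or in trans, on distant loci. XIST, which coats the X chromosome from which it is transcribed, is the textbook case of spreading in cis. In ChIRP, biotinylated DNA probes complementary to the RNA are hybridised to sheared, crosslinked chromatin, and the DNA captured with them is sequenced. A peak at the gene of the RNA itself is therefore usual in this assay, because nascent RNA, the gene and the probes all meet there. The comparison made here asked whether peaks were denser close to LINC01767, whether the protein-coding neighbours such as PLPP3 had peaks, and how the region compared with the remainder of the chromosome. PLPP3 encodes a phospholipid phosphatase that removes the phosphate from lysophosphatidic acid and related lipids.

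LINC01767 (ENSG00000223956.5) was annotated on the plus strand at chr1:56414918-56417137. The pull-down used 9 CRLM1 probes of 59 bases, and all of them matched the spliced transcript ENST00000451914.3. Its 4 exons lie at 56414918 to 56415150, 56415248 to 56415342, 56415533 to 56415609 and 56415782 to 56415966. The probes followed each other without a gap from base 46 to base 576 of the 590-base transcript, which was 90% of its length. Of the 9 probes, 6 lay within 1 exon and had 1 exact match in the genome, at LINC01767, while 3 crossed an exon junction and had no unbroken match in the genome. The outermost probes and the 3 junction probes are shown because they set where genomic DNA and RNA can pair with the oligos. They are written 5′ to 3′ as given in the probe table of the study, and capitals mark the bases that pair with the exon on the upstream side of a junction.
CRLM1-1: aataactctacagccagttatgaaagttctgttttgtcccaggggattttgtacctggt
CRLM1-4: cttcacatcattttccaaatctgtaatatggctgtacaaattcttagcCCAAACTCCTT
CRLM1-5: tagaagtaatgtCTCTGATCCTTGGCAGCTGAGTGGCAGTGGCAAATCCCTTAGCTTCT
CRLM1-7: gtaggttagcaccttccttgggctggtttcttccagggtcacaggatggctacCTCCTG
CRLM1-9: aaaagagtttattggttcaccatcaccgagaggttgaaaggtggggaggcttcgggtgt
CRLM1-4 placed 11 bases in the upstream exon and 48 in the next one, CRLM1-5 placed 47 and 12, and CRLM1-7 placed 6 and 53. On the genome the probes spanned 990 bp, from 56414963 to 56415952.

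All 4 lists had a peak on LINC01767, and in each of them it was the highest score of the region. The peak of replicate 1 ran from 56414742 to 56416221 (1480 bp) against both controls, with a score of 1008.27 against Input and 1466.89 against LacZ. The peak of replicate 2 ran from 56414867 to 56416061 (1195 bp) against both controls, with a score of 1580.45 against Input and 935.57 against LacZ. The second highest score of the region was 111.04 and 121.67 against Input in replicates 1 and 2, and 107.82 and 54.89 against LacZ. The score on the gene was thus 9.08, 13.0, 13.6 and 17.04 times the second highest in R1-Input, R2-Input, R1-LacZ and R2-LacZ. Scores are the authors' values from the peak caller, on a scale that the lists do not state, and were compared within a list only.

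The peak on the gene covered the span of the probes and of the transcript they tile, with a margin on either side. It did not cover the whole annotated gene. Because the probes tile most of that transcript, the peak edges cannot separate these spans. In replicate 1 the peak began 221 bp before the first probe base and ended 269 bp after the last one. In replicate 2 these margins were 96 and 109 bp. The peak covered 58.7% of the annotated gene in replicate 1 and 51.5% in replicate 2. The last 916 and 1076 bp of the gene, which belong to a longer isoform and to which no probe was directed, lay outside the peaks. The 6 probes within an exon also match the genomic DNA under the peak, so capture of this DNA through the RNA and direct capture by the probes cannot be told apart in these lists.

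**Figure D1:**
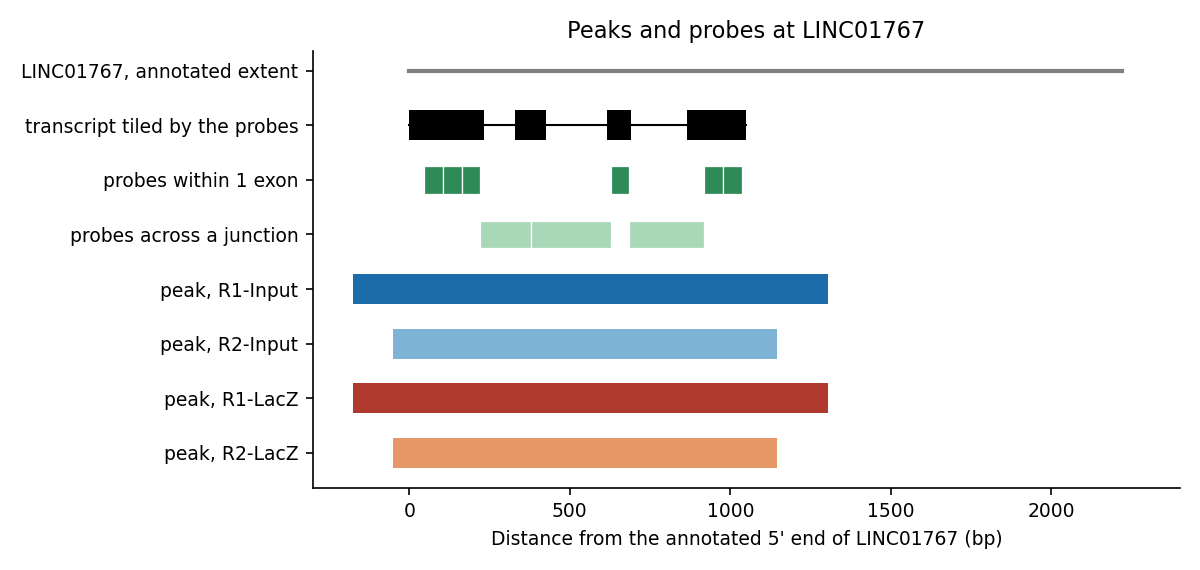
Map of LINC01767 with distance from its annotated 5′ end in bp on the horizontal axis. Rows show the annotated extent of the gene, the 4 exons of the transcript tiled by the probes, the 6 probes within 1 exon, the genomic span of the 3 probes across a junction, and the peak in each list. The peaks start before the first probe and end after the last one, and none reaches the end of the annotated gene.

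The upstream edge of the peak fell in the promoter, taken as 250 bases before to 50 after the RefSeq start (RefSeq sequence, GRCh38.p14, chr1:56414713-56415012, plus strand). The peak of replicate 1 covered 271 of these 300 bases and that of replicate 2 covered 146. The promoter is printed to show the upstream edge of the captured DNA, with capitals for the bases under the peaks of both replicates. The RefSeq start lies inside the first GENCODE exon given above, so the capitals include bases of the tiled transcript. The peaks began 176 and 51 bp before the GENCODE start in replicates 1 and 2. The downstream edge is the last stretch of the replicate 1 peak (chr1:56415922-56416221, plus strand), with capitals for the 31 bases that pair with the last probe.
LINC01767 promoter: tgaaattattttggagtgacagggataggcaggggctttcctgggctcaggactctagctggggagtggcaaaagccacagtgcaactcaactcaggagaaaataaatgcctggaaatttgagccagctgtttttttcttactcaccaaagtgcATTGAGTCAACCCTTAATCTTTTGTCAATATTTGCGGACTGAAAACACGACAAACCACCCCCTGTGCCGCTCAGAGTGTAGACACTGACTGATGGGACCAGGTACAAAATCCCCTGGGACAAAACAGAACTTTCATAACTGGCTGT
LINC01767 downstream edge: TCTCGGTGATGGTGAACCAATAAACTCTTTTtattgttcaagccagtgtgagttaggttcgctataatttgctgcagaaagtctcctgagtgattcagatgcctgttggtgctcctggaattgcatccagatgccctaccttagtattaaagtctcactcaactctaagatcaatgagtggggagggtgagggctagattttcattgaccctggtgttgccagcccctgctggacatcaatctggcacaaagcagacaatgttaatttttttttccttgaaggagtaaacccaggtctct
In both stretches, captured sequence extends past the bases that any probe can pair with.

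Away from the gene, the peaks of the region were narrow and had scores near the lowest value of their lists. Without the peak on the gene, the median score was 55.11 against Input and 59.06 against LacZ in replicate 1. In replicate 2 it was 57 against Input and 53.865 against LacZ. On the remainder of chromosome 1, the medians were 55.86, 57.73, 58.53 and 54.6 for R1-Input, R2-Input, R1-LacZ and R2-LacZ. Scores of at least 100 away from the gene numbered 2 and 3 against Input and 2 and 0 against LacZ. Leaving out peaks within 10 kb of the gene start, the median width was 388 and 399.5 bp against Input and 397 and 428 bp against LacZ, compared with 386, 402, 393 and 478 bp on the remainder of the chromosome.

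**Figure D2:**
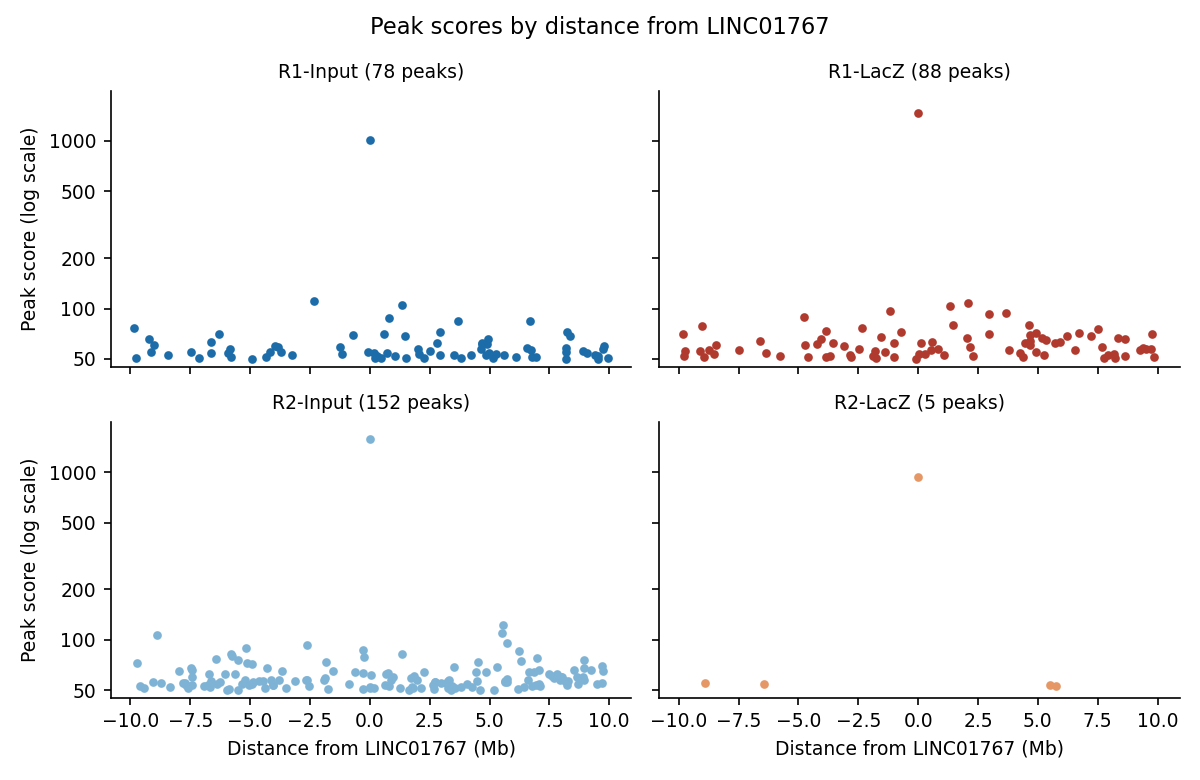
Peak score (log scale, vertical axis) against distance of the peak midpoint from the 5′ end of LINC01767 in Mb (horizontal axis), 1 point per peak and 1 panel per list. The single point far above the others in each panel is the peak on the gene (935.57 to 1580.45), and no other point exceeds 121.67.

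No difference in peak density between the surroundings of LINC01767 and the outer parts of the region was detectable beyond counting error. Peaks within 10 kb of the gene start were left out of this comparison. In R2-Input this removed the peak on the gene and another 9.54 kb to its left. Between 10 kb and 1 Mb, replicate 1 had 9 peaks against Input, or 4.55 peaks per Mb, compared with 68 peaks from 1 Mb to the edge, or 3.78 per Mb. The ratio of these densities was 1.20, with an exact 95% binomial (Clopper-Pearson) interval from 0.528 to 2.42. In R2-Input, 15 peaks gave 7.58 per Mb near the gene and 135 gave 7.5 per Mb farther out (ratio 1.01, interval 0.550 to 1.73). With the peaks within 10 kb kept, the ratio in R2-Input was 1.13 (interval 0.641 to 1.88). In R1-LacZ, 9 peaks gave 4.55 per Mb near and 78 gave 4.33 per Mb far (ratio 1.05, interval 0.462 to 2.10). In R2-LacZ, no peak lay between 10 kb and 1 Mb and 4 lay farther out, with an interval of the ratio up to 13.8, so a change with distance was not detectable there. Such intervals cover counting error only and treat the peaks of a list as independent. In the 3 longer lists, the intervals allow densities near the gene from 0.462 to 2.42 times those farther out. Median scores over the same peaks were 54.62 near and 55.12 far in R1-Input, 60.24 and 56.93 in R2-Input, and 56.91 and 59.685 in R1-LacZ.

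In finer steps, the density did not fall steadily with distance. In R1-Input, the density was 5.56 peaks per Mb from 10 to 100 kb (1 peak), 4.44 from 100 kb to 1 Mb (8 peaks), 3.00 from 1 to 2 Mb (6 peaks), 4.33 from 2 to 5 Mb (26 peaks) and 3.60 beyond 5 Mb (36 peaks). In R2-Input, it was 11.1 from 10 to 100 kb (2 peaks), 7.22 from 100 kb to 1 Mb (13 peaks), 6.50 from 1 to 2 Mb (13 peaks), 6.83 from 2 to 5 Mb (41 peaks) and 8.10 beyond 5 Mb (81 peaks). In R1-LacZ, it was 11.1 (2 peaks), 3.89 (7 peaks), 5.00 (10 peaks), 5.17 (31 peaks) and 3.70 (37 peaks) over the same steps. The 10 to 100 kb step thus rested on 1 or 2 peaks in these lists. In R2-LacZ it held 0 peaks, which allows up to 16.7 per Mb by the rule of 3 (3 peaks over the length of the step). The sides of the gene were unequal in R1-Input, with 26 peaks to the left (lower coordinates) and 52 to the right. The split was 67 and 85 in R2-Input, 37 and 51 in R1-LacZ, and 2 and 3 in R2-LacZ.

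**Figure D3:**
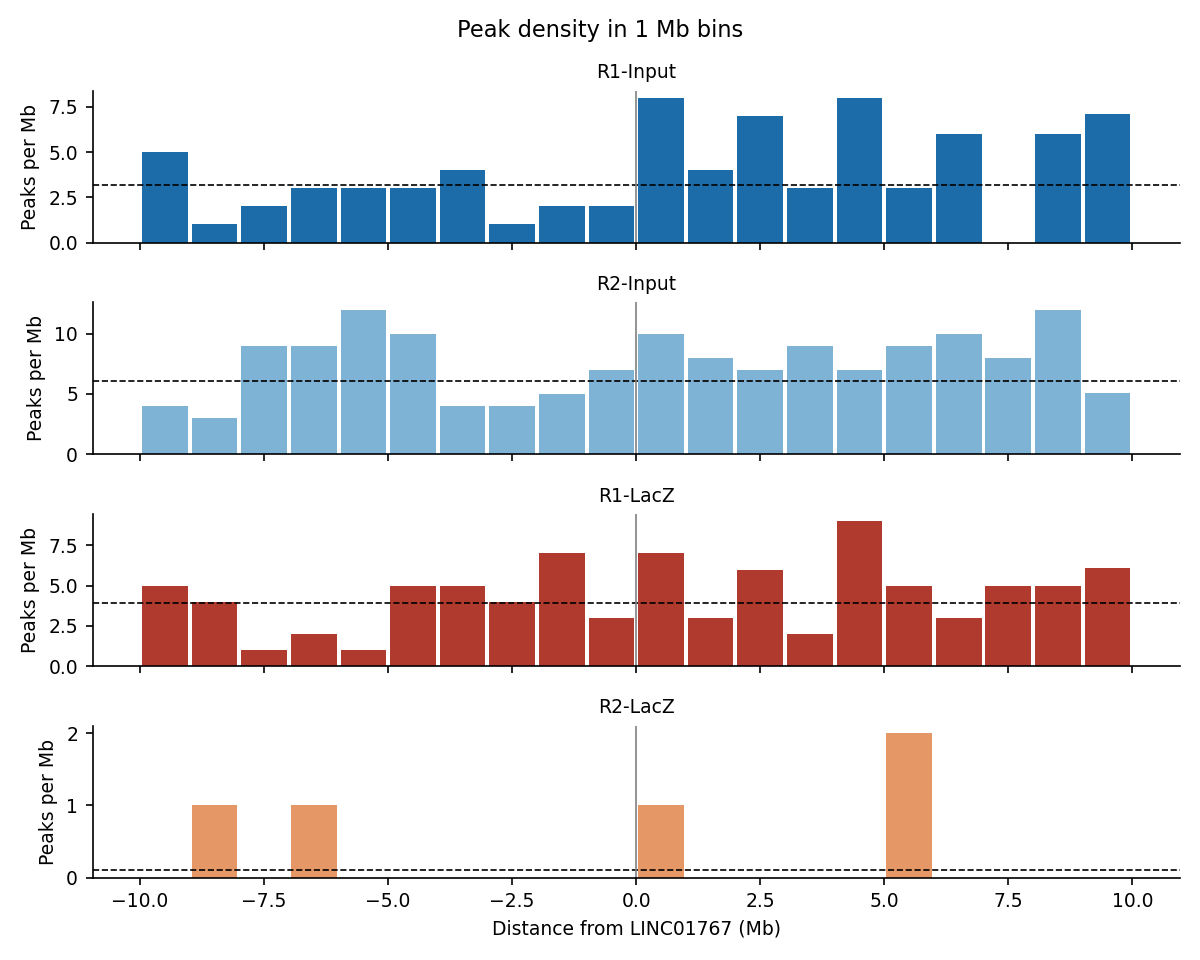
Peaks per ungapped Mb (vertical axis) in bins of 1 Mb by signed distance from the 5′ end of LINC01767 in Mb (horizontal axis), 1 panel per list. The dashed line is the density on the remainder of chromosome 1 (3.17, 6.07, 3.93 and 0.109 per Mb from top to bottom), and bars on either side of the gene rise above it and fall below it.

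The peaks next to the one on the gene differed between the replicates. In replicate 1, the closest peak to the left lay 79.8 kb away (56334886 to 56335309), with a score of 55.21 against Input and 50.02 against LacZ. To the right, the closest lay 155 kb away against Input and 20.6 kb away against LacZ, with scores of 54.35 and 53.67. In R2-Input, the closest peaks lay 9.54 kb to the left (56405199 to 56405564, score 51.54) and 28.6 kb to the right (56443349 to 56443767, score 52.19). In R2-LacZ, the closest peaks lay 6419 kb to the left and 5509 kb to the right. Several of these peaks lay in introns of ENSG00000284686 and ENSG00000260971, a protein-coding and a lncRNA gene model on the minus strand within which LINC01767 itself is located. These models had 2 and 2 peaks in R1-Input, 4 and 5 in R2-Input, 3 and 3 in R1-LacZ, and 1 and 1 in R2-LacZ, the peak on LINC01767 included.

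PLPP3 (chr1:56494761-56645301, minus strand), the nearest named protein-coding gene, had 1 intronic peak in each of 3 lists, and none of these was at the same place as another. In replicate 1, the peak lay at 56569393 to 56569966 against Input (score 54.35) and at 56549109 to 56549586 against LacZ (score 62.07). In replicate 2, it lay at 56582998 to 56583409 against Input (score 51.32), and no peak was called against LacZ. No list had a peak within the 5 kb upstream of the PLPP3 start that was counted with the gene body. Over the 151 kb of the gene, 1 peak corresponds to 0.664 per 100 kb.

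Between PLPP3 and DAB1, the protein-coding genes PRKAA2, FYB2, C8A and C8B had at most 1 peak in any list. PRKAA2 (56645314 to 56715335), which encodes a catalytic subunit of AMP-activated protein kinase, had 1 intronic peak in R1-Input (56651042 to 56651440, score 50.69) and none in the other lists. FYB2 (56718789 to 56819696), an adaptor protein gene of lymphocytes, had no peak in any list, and the nearest one lay 432 bp outside it at 56718036 to 56718357 (score 52.05 and 53.26 in R1-Input and R1-LacZ). C8A (56854768 to 56918223) and C8B (56929207 to 56974383) encode subunits of the eighth component of complement. C8A had 1 peak in R1-Input (56864427 to 56864822, score 51.01), and C8B had 1 in R1-LacZ (56966036 to 56966443, score 56.91). In the GENCODE model of C8B the latter lay in an intron, and it overlapped the C8B promoter of RefSeq (GRCh38.p14, chr1:56965966-56966265, minus strand). This promoter was 1 of 3 in the region with a peak and is printed here with capitals for the 230 bases under it.
C8B promoter: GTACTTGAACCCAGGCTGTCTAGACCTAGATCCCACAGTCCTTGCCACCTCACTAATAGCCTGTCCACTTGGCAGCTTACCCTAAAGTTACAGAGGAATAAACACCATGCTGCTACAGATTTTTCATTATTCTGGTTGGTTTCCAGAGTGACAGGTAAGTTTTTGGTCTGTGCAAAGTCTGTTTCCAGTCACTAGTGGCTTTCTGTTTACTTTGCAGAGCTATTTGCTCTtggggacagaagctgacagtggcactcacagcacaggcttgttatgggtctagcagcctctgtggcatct
RefSeq promoter sequences were held for 196 genes of the region (265 promoters). Those of LINC01767, C8B and PDE4B overlapped a peak, PDE4B by 5 bases, and LINC01767 was the single gene where this held in both replicates. The share of all promoters with a peak was not computed, so the count has no background beside it. It also depends on the starts that were held. A peak of R1-LacZ (60865201 to 60865461, score 62) covered the GENCODE 5′ end of NFIA.

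DAB1 (56994778 to 58546734), which encodes an adaptor of the reelin receptors in neurons, extends over 1552 kb and had the most peaks of any gene in the region, summed over the 4 lists. It had 8 peaks in R1-Input and 14 in R2-Input, and 6 and 0 against LacZ. Per 100 kb these were 0.515, 0.902 and 0.387 peaks in R1-Input, R2-Input and R1-LacZ, next to 0.664 for PLPP3. The highest scores were 104.78 and 102.95 at 57759877 to 57760245 in R1-Input and R1-LacZ, and 107.82 and 53.38 at 58485005 to 58485641 in R1-LacZ and R1-Input, where OMA1, a mitochondrial protease gene, overlaps DAB1. No DAB1 peak of replicate 1 overlapped one of replicate 2.

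Within 1 Mb of LINC01767, the highest scores away from the gene lay in different places in the replicates. In R1-Input, the highest was 87.65 in a DAB1 intron, where the score against LacZ was 57.37. In R2-Input, the highest was 87.37 at 56110291 to 56110870 in intergenic sequence, 62563 bp from ENSG00000284686. Peaks with scores of 63.50 and 50.85 followed at 56112328 to 56112810 and 56114648 to 56115051, and another of 78.71 lay at 56165587 to 56165855 in an intron of ENSG00000260971. The highest of R1-LacZ was 71.94 at 55698974 to 55699378 inside an intron of ENSG00000234810, a lncRNA gene, where the score against Input was 69.62.

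**Figure D4:**
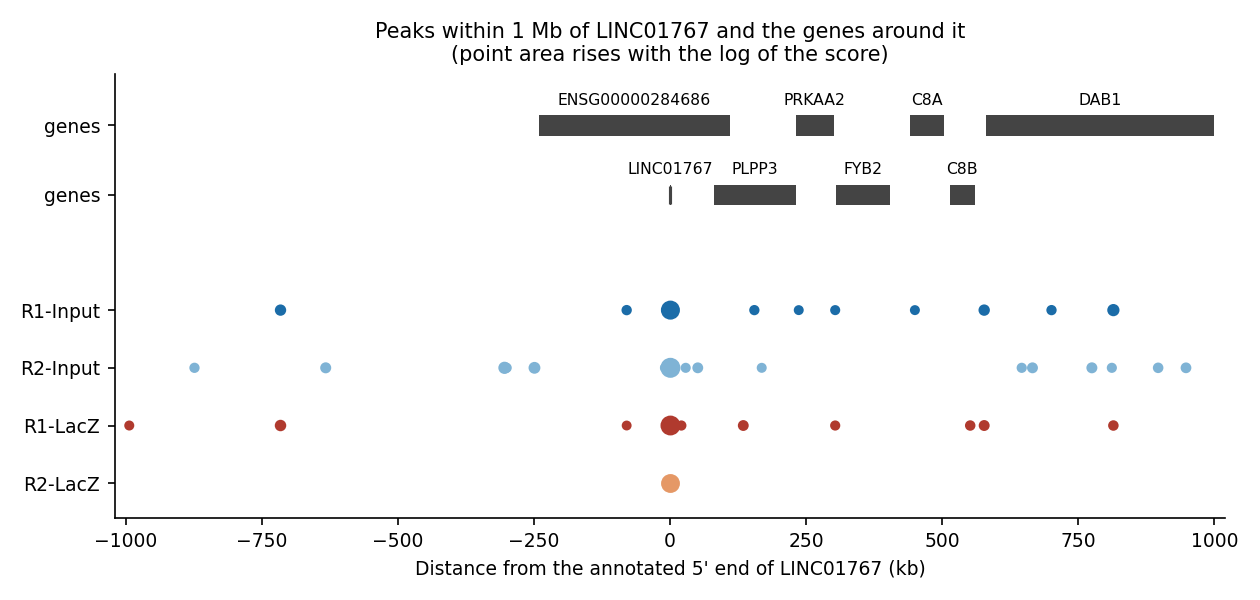
Peaks within 1 Mb of LINC01767 by distance from its 5′ end in kb (horizontal axis), 1 row per list, with LINC01767 (tick) and the protein-coding genes around it drawn to scale above (DAB1 continues past the right edge). Point area rises with the log of the score. The large point in each row is the peak on LINC01767, and the points in PLPP3 stand at a different distance in each list.

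Across the whole region, 412 genes were annotated, 125 of them protein-coding. Genes were counted if any peak touched the gene body or its upstream 5 kb. Against Input, 48 genes (11.7%) in replicate 1 and 80 (19.4%) in replicate 2 had a peak, where 7.25% and 12.1% of all 62663 annotated genes did. Against LacZ, 60 genes (14.6%) in replicate 1 and 6 (1.46%) in replicate 2 had a peak, where 10.3% and 0.495% of all genes did. On the remainder of chromosome 1 the shares were 7.15%, 12.2%, 10.5% and 0.324% in the order R1-Input, R2-Input, R1-LacZ and R2-LacZ. The share in the region was above that of all genes in each list. In R2-LacZ, however, LINC01767, ENSG00000260971 and ENSG00000284686 were among the 6 genes through the peak on LINC01767 alone. The share in that list thus rests partly on the gene at which the region was centred. Genes of over 100 kb, which offer more sequence to a peak, made up 10.2% of the genes of the region and 6.96% elsewhere on the chromosome. The median gene length was 4.01 kb in the region and 4.41 kb elsewhere on the chromosome. The part of gene length in the difference was not tested. A peak in both replicates against Input was found for 24 genes (5.83%), compared with 3.81% of all annotated genes and 3.64% on the remainder of chromosome 1, and 19 of the 24 were over 100 kb long. Against LacZ, 5 genes (1.21%) had a peak in both replicates, compared with 0.239% of all genes and 0.133% on the remainder of the chromosome. Of these, LINC01767, ENSG00000260971 and ENSG00000284686 shared the peak on LINC01767 in replicate 2, and the others were AGBL4 and PATJ.

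Lists of genes of the region were then described by function, next to the 125 protein-coding genes of the region. Of these 125, 26.4%, 36.8%, 33.6% and 2.40% had a peak in R1-Input, R2-Input, R1-LacZ and R2-LacZ. Over all 20033 protein-coding genes, the shares were 13.1%, 22.2%, 20.2% and 1.02% in the same order. The lists were not tested against these shares. Of all 412 genes of the region, 24 (5.83%) had a peak in both replicates against Input. Of these 24, 19 were over 100 kb long. The share for protein-coding genes alone was not computed. Of the 13 near neighbours held in the annotation, 7 had a peak in R1-Input and 3 in R2-Input, 6 in R1-LacZ and 0 in R2-LacZ. The 3 with a peak in both replicates against Input were PLPP3, DAB1 and MYSM1, a histone H2A deubiquitinase gene, while JUN, BSND and FYB2 were among those with none. MYSM1 had an exonic peak in replicate 1 (58688423 to 58688754, score 50.83 against Input and 51.95 against LacZ) and an intronic peak elsewhere in replicate 2 (58669676 to 58670028, score 64.35). Of 12 lipid and sterol genes, 3 and 5 had a peak against Input and 5 and 0 against LacZ in replicates 1 and 2, and PLPP3 was the single one with a peak in both replicates. Of 11 kinase and signalling genes, 4 and 6 had a peak against Input and 5 and 0 against LacZ. The 3 with a peak in both replicates were FAF1, EPS15 and PDE4B, which encode a Fas-associated factor, an endocytic adaptor and a phosphodiesterase of cyclic AMP. EPS15 had 1 and 3 peaks against Input and 0 and 0 against LacZ. Of 11 transcription factor and chromatin genes, 2 and 4 had a peak against Input and 3 and 0 against LacZ. MYSM1 and NFIA had one in both replicates against Input, and 7, the FOX genes FOXE3, FOXD2 and FOXD3 among them, had none. These FOX genes were 1.77 to 2.65 kb long, and the median length in this list was 15.9 kb. The part of gene length in these counts was not tested.

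The region had 42 genes of over 100 kb. A list of 12 large genes, 10 of them over 100 kb, made up 32.8% of the sequence of the region with the upstream 5 kb included. These genes held 33 of the 78 peaks of R1-Input (42.3%, interval 31.2 to 54.0%), 61 of 152 in R2-Input (40.1%, interval 32.3 to 48.4%), 28 of 88 in R1-LacZ (31.8%, interval 22.3 to 42.6%) and 3 of 5 in R2-LacZ. In each list with more than 5 peaks, the interval included the share of the sequence. A peak was found in 9 of the 12 genes in R1-Input, R2-Input and R1-LacZ, and in 2 in R2-LacZ. AGBL4, a gene of 1491 kb for an enzyme that trims glutamate from tubulin, had 4 and 15 peaks against Input and 2 and 1 against LacZ. NFIA, a transcription factor gene of 598 kb, had 7 and 5 against Input and 7 and 0 against LacZ. PDE4B had 6 and 4 against Input and 5 and 0 against LacZ, and FAF1 had 3 and 7 against Input and 1 and 0 against LacZ. FGGY, a carbohydrate kinase gene, had 2 and 6 against Input and 2 and 0 against LacZ. CACHD1, which was not on this list, had 4 and 2 against Input and 2 and 0 against LacZ. PATJ, which encodes a scaffold protein of tight junctions, had 1 and 7 against Input and 2 and 2 against LacZ. SSBP3 (188 kb) and KANK4 (83.3 kb) had no peak in any list.

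The peaks of R2-LacZ could be listed in full. Besides the one on LINC01767, they lay at 47512367 to 47512731 (score 54.89, intergenic, 71676 bp from FOXD2), at 49996146 to 49996636 (score 54.28, an AGBL4 intron), at 61923741 to 61924271 (score 53.45, a PATJ intron) and at 62161122 to 62161444 (score 52.94, a PATJ exon). In R2-Input the same intervals had scores of 107.03, 76.90, 110.36 and 95.52. The highest score away from LINC01767 in that list, 121.67, also lay in a PATJ intron (61976482 to 61976843). In R1-Input, the highest such score lay in a TCEANC2 intron (54068205 to 54068685, score 111.04). None of these intervals overlapped a peak of the other replicate under the same control.

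Between replicates, the single site of the region called in both was LINC01767. Against Input, 1 of 78 peaks of replicate 1 (1.28%) and 1 of 152 of replicate 2 (0.658%) overlapped a peak of the other replicate by at least 1 bp, compared with 1.73% and 0.936% over the complete lists. Against LacZ, 1 of 88 (1.14%) and 1 of 5 (20%) did, compared with 0.0582% and 1.65%. With overlap at a single site, these shares are near the background against Input, and against LacZ they rest on 1 peak. Allowing a gap of 1 kb added 1 pair against Input, in an NFIA intron, where the peaks of replicate 1 (61274018 to 61274399, score 52.56) and replicate 2 (61273708 to 61273955, score 64.06) lay 62 bp apart. This pair was singled out after its values were seen, and its central stretch (chr1:61273837-61274136, plus strand) is printed with capitals for the bases under a peak of either replicate.
NFIA intron: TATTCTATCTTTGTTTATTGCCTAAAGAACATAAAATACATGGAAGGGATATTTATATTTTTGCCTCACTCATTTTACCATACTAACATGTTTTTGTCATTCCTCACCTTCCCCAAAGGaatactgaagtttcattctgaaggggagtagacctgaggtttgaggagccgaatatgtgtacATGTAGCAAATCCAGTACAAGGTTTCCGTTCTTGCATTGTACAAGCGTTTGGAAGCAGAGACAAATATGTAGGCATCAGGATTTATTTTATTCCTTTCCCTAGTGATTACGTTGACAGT
Within 5 kb, 7 peaks of replicate 1 (8.97%, interval 3.68 to 17.6%) and 7 of replicate 2 (4.61%, interval 1.87 to 9.26%) had a partner against Input, compared with 7.95% and 4.46% on the remainder of chromosome 1. The other pairs were 1219 to 3244 bp apart and lay in FAF1, DAB1, DNAJC6 and PDE4B and in intergenic sequence. Against LacZ, a gap of 5 kb added no pair.

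Calls against both controls share the CRLM1_IP library and are not independent of each other. In replicate 1, 39 peaks of the region were called against both, which was 50.0% of those against Input and 44.3% of those against LacZ, next to 50.3% and 45.6% over the complete lists. In replicate 2, 5 were called against both, which was 3.29% of those against Input and 100% of those against LacZ, next to 2.05% and 94.8%. All of these shared calls had identical start and end positions. The shares of the region were thus close to those of the complete lists.

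By sequence, no peak of the region other than the one on LINC01767 matched a probe. When the probes were searched in the peaks with blastn at an E value of at most 0.01, 1 peak of the region matched in each list, and all 9 probes matched it. Over the complete lists, 0.0322% and 0.00596% of peaks against Input and 0.0097% and 0.551% of peaks against LacZ matched, for replicates 1 and 2. At an E value of at most 1, 1 further peak of the region matched in replicate 1, at 64597372 to 64597603 in CACHD1, with 23 bases of CRLM1-1 aligned at 87.0% identity. A match is a description of the letters only.

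Peaks of the region lay mostly in introns, as did its sequence. Introns held 75.6% of peaks (interval 64.6 to 84.7%) in R1-Input and 71.1% (63.2 to 78.1%) in R2-Input, and 68.2% (57.4 to 77.7%) in R1-LacZ and 40% (5.27 to 85.3%) in R2-LacZ. Introns made up 69.7% of the sequence of the region, intergenic sequence 16.5%, the 5 kb upstream of genes 8.50% and exons 5.34%. On the remainder of chromosome 1, 53.7% and 53.0% of peaks against Input and 50.7% and 47.8% of those against LacZ were intronic. The intronic share in the region therefore lay within counting error of the share of its sequence in all 4 lists. Exons held 6 of 78 and 5 of 152 peaks against Input and 7 of 88 and 2 of 5 against LacZ, and the peak on LINC01767 was 1 of these in each list. Median GC content was 40.6% and 39.7% against Input and 42.6% and 42.4% against LacZ, next to 38.3%, 39.7%, 42.1% and 43.5% on the remainder of the chromosome and 41.5% for the sequence of the region.

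Against other parts of chromosome 1, the region was moderately rich in peaks, and other windows of the same size were denser in 3 of the 4 lists. It held 10.5% of the chromosome 1 peaks of R1-Input and 10.6% of those of R2-Input, and 9.62% and 17.9% of those against LacZ, in 8.68% of the ungapped chromosome. The density was 3.90 peaks per Mb against 3.17 elsewhere on the chromosome in R1-Input (ratio 1.23, interval 0.961 to 1.56). It was 7.60 against 6.07 in R2-Input (ratio 1.25, interval 1.05 to 1.48), 4.40 against 3.93 in R1-LacZ (ratio 1.12, interval 0.888 to 1.40) and 0.250 against 0.109 in R2-LacZ (ratio 2.29, interval 0.679 to 6.15). The mean ratio was 1.24 ± 0.0155 (SD, n = 2) against Input and 1.70 ± 0.826 (SD, n = 2) against LacZ. Only the interval of R2-Input left out 1, and it included 1 when scores of at least 60 were required (ratio 1.12, interval 0.836 to 1.48). For R2-LacZ the ratio fell to 0.817 when 5 Mb on either side of the gene were taken. Over the whole region but without the peak on the gene, the R2-LacZ ratio was 1.83 (interval 0.460 to 5.36). The mean ratio against LacZ was then 1.47.

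Among 11 windows of 20 Mb laid along chromosome 1, the region ranked 4 from the highest in density in R1-Input, 3 in R2-Input, 4 in R1-LacZ and 1 in R2-LacZ. The first place in the last list rested on 5 peaks, where the other windows held 1 to 4. The peak on LINC01767 was 1 of these 5. Without it the region held 4, as many as the fullest of the other windows. The neighbouring window to the right held 87 and 161 peaks against Input and 63 and 1 against LacZ, more than the region in both lists against Input and fewer in both against LacZ. The neighbouring window to the left held 43 and 109 against Input and 88 and 2 against LacZ. The other windows ranged from 1.41 to 4.35 peaks per Mb in R1-Input, 4.06 to 8.05 in R2-Input, 3.04 to 5.28 in R1-LacZ and 0.050 to 0.201 in R2-LacZ. The region had 125 protein-coding genes and a GC content of 41.5%, which ranked 6 and 7 from the lowest of the 11 windows.

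**Figure D5:**
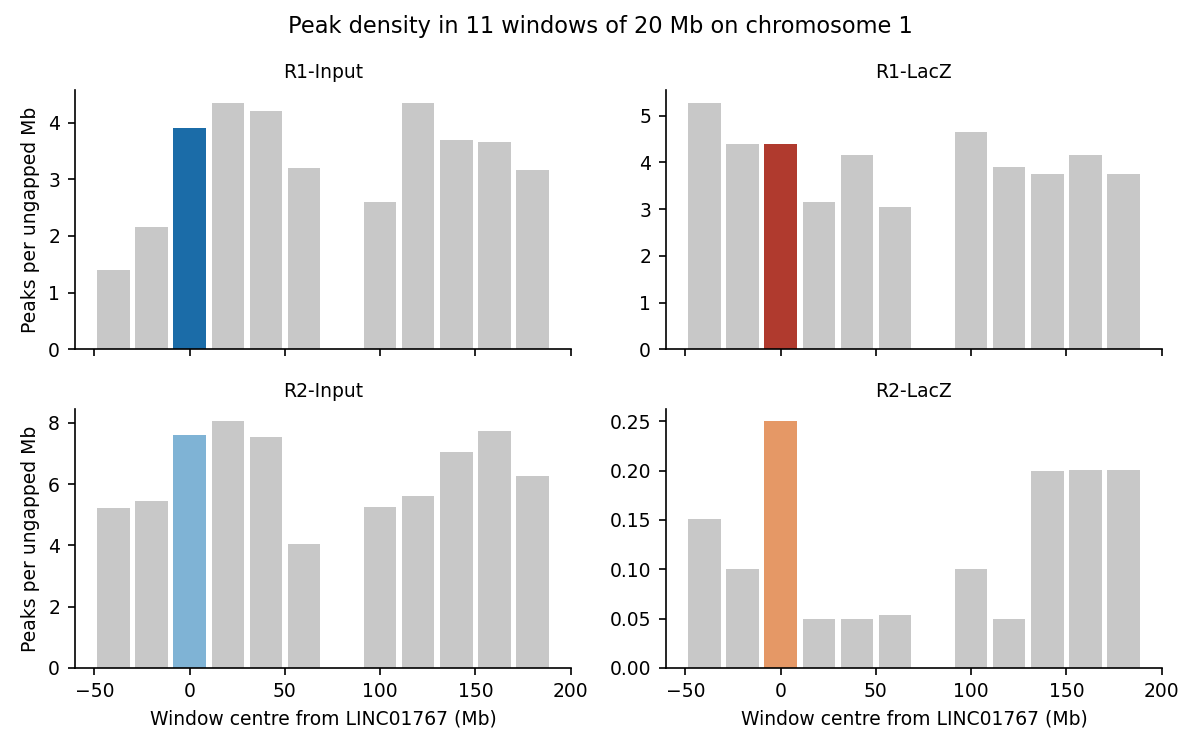
Peaks per ungapped Mb (vertical axis) in 11 windows of 20 Mb of chromosome 1, placed by the distance of the window centre from LINC01767 in Mb (horizontal axis), 1 panel per list. The coloured bar is the region around LINC01767 and grey bars are the other windows. Grey bars stand above the coloured one in each panel except that of R2-LacZ, and the gap marks a window with under 15 Mb of ungapped sequence that was not used.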

How the data were processed

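ChIRP-seq peaks of HCT116 cells were taken from 4 peak lists deposited by the authors, each a CRLM1_IP replicate called against the Input or LacZ library of the same number. According to the methods and the submitters' processing notes, reads were trimmed with cutadapt and aligned to GRCh38 with Bowtie2. Each deposited list is labelled with 1 replicate, while the methods describe peak calling by group and do not say whether replicates were pooled. The methods name MACS2, whereas the layout of the deposited lists is that of an older MACS release, so the caller version and threshold were not settled. The deposited score of each peak is the authors' value, used to describe and filter only. Sequencing depth is unknown.

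Peaks were read as 1-based positions and assigned to the region by midpoint, and gene models came from GENCODE release 44. Distances run from the peak midpoint to the annotated 5′ end of LINC01767. Densities are peaks per ungapped Mb, with exact Clopper-Pearson intervals at 95% (Python 3.11.15, SciPy 1.17.1). Windows of 20 Mb were laid outward from the region. Probes were searched with blastn (BLAST+ 2.17.0, word size 11). With 1 list per replicate and control, no group test was made. The counting steps were tested on simulated data. Alternatives covered score thresholds, distances, upstream length, overlap rules and left-out replicates. Peaks called in the LacZ libraries were not analysed here.

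The members and gene lists were chosen with earlier results of these data known. Named were LINC01767 and genes overlapping its peaks, protein-coding genes within 1 Mb, listed genes with a peak in both replicates against 1 control, the 10 genes with most peaks, peaks within 1 Mb, the 3 highest scores per list, peaks of replicate 2 against LacZ and peaks shared by the replicates. Listed genes without a peak were named after their counts were seen. Some items are not reported here.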

Additional observations from a re-analysis of the deposited data

How the results depend on the processing

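Of 117 values computed under alternatives for 38 results, 28 moved by more than the counting interval, the spread between replicates or, for counts, 1.5 times. Among 61 density ratios, 8 lay on the other side of 1 from the reported value, and each of these had an interval that included 1. For R2-LacZ, the ratio to the remainder of the chromosome, 2.29, was 0.817 with 5 Mb on either side, and the ratio of near to far rose from 0 to 2.25 when the peak on the gene was kept. The ratio of near to far in R1-Input, 1.20, was 0.940 with scores at or above the median and 0.973 within 2 Mb. In R2-Input, 1.01 became 0.923 within 2 Mb and 0.949 within 500 kb, and in R1-LacZ, 1.05 became 0.649 with scores at or above the median and 0.934 within 500 kb. Requiring scores at or above the list median left 33, 70, 46 and 1 peaks in the region for R1-Input, R2-Input, R1-LacZ and R2-LacZ, and 25, 38, 36 and 3 genes with a peak. Scores of at least 60 left 23, 56, 43 and 1 peaks. With scores at or above the median, the median GC content was 41.6% in R1-Input, 42.1% in R1-LacZ and 47.8% in R2-LacZ. Peaks found in the other replicate against Input rose from 1 to 2 in each replicate within 1 kb and to 7 in each within 5 kb. Counting only protein-coding genes gave 46 genes in R2-Input and 3 in R2-LacZ. An E value of at most 1 gave 2 matching peaks in each list of replicate 1. The mean ratio of density to the remainder of chromosome 1 against Input was 1.24. It was 1.10 with scores at or above the median and 1.09 with scores of at least 60. Without the peaks within 10 kb of the gene start it was 1.23. It was 1.19 without 120 to 150 Mb and 1.21 against the other autosomes. Leaving out 1 replicate gave 1.23 to 1.25 against Input and 1.12 to 2.29 against LacZ, where the value without replicate 1 was 2.29 and rested on 5 peaks. The cause of these changes was not tested, apart from fewer peaks or genes entering by construction. For R2-LacZ, the density near the gene under scores at or above the median gave no value, because no peak was left farther out. No paired analysis was possible because each list already sets a pull-down against the control of the same number and no model was fitted. The short list of R2-LacZ and the unknown depth limit every comparison with it.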
